A study of Mus musculus with 20 samples.

Results

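The genes described are the subunits of the receptors for glutamate, GABA and glycine, the main fast transmitters of the brain. They were the rows of the deposited table whose symbols name an AMPA (Gria1 to Gria4), kainate (Grik1 to Grik5), delta (Grid), NMDA (Grin1, Grin2a to Grin2d, Grin3a, Grin3b) or metabotropic glutamate (Grm) subunit, a GABA-A (Gabr) or GABA-B (Gabbr1, Gabbr2) subunit, or a glycine receptor subunit (Glra1 to Glra4, Glrb). The rule found 51 genes among 37994. Transcripts of single cells of the mouse habenula, a paired structure of the epithalamus with a medial and a lateral division, were counted with Cel-seq2 on 20 plates of 384 wells. A developmental series from the Brn3a-tauLacZ mouse line, named for a reporter at Brn3a, the older name of the transcription factor gene Pou4f1, comprised embryonic days E11, E12 (a single plate), E13, E15 and E18, postnatal days P4 and P7, and the adult, with 2 plates at each stage but E12. Besides these, C57BL/6 embryos at E18 gave 2 plates of the left habenula, 2 of the right and 1 of both sides, a second set whose tables were counted apart, so that its levels are set beside the series without a test. No treatment is named for any group. The sources used here do not give the number or sex of the animals, their reporter genotype or any sort of the cells, so plates may share animals, and p-values measure the spread between plates.

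Ionotropic receptors are ion channels built from several subunits. AMPA and kainate receptors carry fast excitation by glutamate, NMDA receptors need Grin1 together with Grin2 or Grin3 subunits and pass calcium, and GABA-A and glycine receptors are chloride channels. Metabotropic glutamate receptors and the GABA-B receptor, an obligate pair of Gabbr1 and Gabbr2, act through G proteins. Medial habenula neurons project to the interpeduncular nucleus, where GABA-B receptors at their terminals are known to raise transmitter release.

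Levels are counts per 1000000 counts (CPM) summed over all kept cells of a plate. Where the second set is not named, stages, ranges and orders of plates are those of the series. Cel-seq2 reads the 3′ end and counts each molecule once, so levels are not divided by gene length. Adult plate 1 had the fewest kept cells (56) and counts (758697) of the series, E11 plate 2 the most cells (345) and P7 plate 1 the most counts (7760372). All 10 neuron markers were detected on every plate. The share of cells with a Pou4f1 transcript was 71.2% or more on the series plates, apart from E13 plate 2 (51.1%), E18 plate 1 (28.1%) and the adult plates (37.5% and 52.6%). E18 plate 1 stood apart from E18 plate 2, with 9 progenitor markers summing to 3739 against 217 CPM. In sums over cells, fewer cells of a type and less RNA per cell cannot be told apart. Each sequencing run held 5 plates, and the labels do not say which, so run and stage cannot be told apart. Results were therefore also computed in Pou4f1-positive cells, in spliced transcripts, and without the 4 plates that had under 60% Pou4f1-positive cells.

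Sequences upstream of 4 members are shown because their rise from E11 to P7 passed the test in every alternative and no annotated exon of another gene lies in them. They are the 250 bases before the start of the gene from RefSeq (GRCm38.p6), all on the minus strand: Gria2 at chr3:80802836-80803085, Grin1 at chr2:25319188-25319437, Glrb at chr3:80913661-80913910 and Gabra5 at chr7:57510060-57510309. Capitals mark TGACG or its reverse complement CGTCA, the core of the cAMP response element.
Gria2: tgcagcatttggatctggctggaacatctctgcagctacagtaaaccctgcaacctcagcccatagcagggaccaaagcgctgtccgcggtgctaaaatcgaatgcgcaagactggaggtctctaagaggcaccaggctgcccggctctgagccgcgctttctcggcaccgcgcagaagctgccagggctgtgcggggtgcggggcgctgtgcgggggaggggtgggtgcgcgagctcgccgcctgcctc
Grin1: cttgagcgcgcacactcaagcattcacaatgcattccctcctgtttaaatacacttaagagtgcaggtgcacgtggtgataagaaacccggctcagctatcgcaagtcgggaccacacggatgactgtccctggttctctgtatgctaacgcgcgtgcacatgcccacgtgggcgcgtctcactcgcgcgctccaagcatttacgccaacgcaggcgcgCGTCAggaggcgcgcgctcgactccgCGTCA
Glrb: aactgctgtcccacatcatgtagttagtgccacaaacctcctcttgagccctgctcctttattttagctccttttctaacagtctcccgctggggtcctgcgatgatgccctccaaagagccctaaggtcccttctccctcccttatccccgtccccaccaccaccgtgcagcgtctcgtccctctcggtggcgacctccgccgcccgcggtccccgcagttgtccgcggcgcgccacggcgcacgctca
Gabra5: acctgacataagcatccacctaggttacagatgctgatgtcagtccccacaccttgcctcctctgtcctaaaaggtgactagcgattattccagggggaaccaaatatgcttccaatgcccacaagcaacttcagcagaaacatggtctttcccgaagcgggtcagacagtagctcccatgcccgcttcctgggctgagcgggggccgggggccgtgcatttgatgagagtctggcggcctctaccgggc
Promoters were found in RefSeq for 35 of the 51 genes, 42 promoters in all. TGACG or CGTCA occurred in 3 of these 42 (7.14%), those of Grin1, Grm8 and Gabrr1, against 5836 of 32851 windows of the same length over all genes (17.8%). Grin1 held 2 matches, and Gria2, Glrb and Gabra5 held 0. TAATTA, a homeodomain core that reads the same on both strands, occurred in 1 of the 42 (Gabrg1), against 4.84% of all windows. The median number of CG pairs was 8.5 in receptor promoters and 6 in all.

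Within the series, receptor transcripts made up more of the RNA after birth. At E11 they summed to 3120 and 3295 CPM and at E12 to 3922 CPM, followed by 2341 and 1579 CPM at E13, 2215 and 4063 CPM at E15, and 2688 and 4864 CPM at E18. The plates of P4 reached 7469 and 8002 CPM, those of P7 7997 and 8278 CPM, and the adult plates 7982 and 8986 CPM. Every plate from P4 onwards lay above every earlier series plate. Cell type markers also moved. From E11 to P7, medial habenula markers went from 1029 and 1084 to 7020 and 7128 CPM. Neuron markers went from 14258 and 14123 to 5482 and 5533 CPM, and progenitor markers from 917 and 916 to 249 and 202 CPM. The part of the cell mixture was not tested. The 4 one-sided plates of the second set at E18 lay between 5685 and 6699 CPM, above both series plates of that age, and the plate of both sides read 7532 CPM, above P4 plate 1. At P4 and P7, 4 genes gave 53.5% of the sum: Gabbr2 (mean 1422 CPM), Gria1 (1115), Gabbr1 (1087) and Gria2 (622). Of the 51 genes, 43 passed the filter on low counts in the stage fit. The others were Gabra6, Gabrd, Gabre, Gabrp, Gabrr1, Gabrr2, Gabrr3 and Glra4, with between 7 and 69 UMIs in the whole series.

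**Figure D1:**
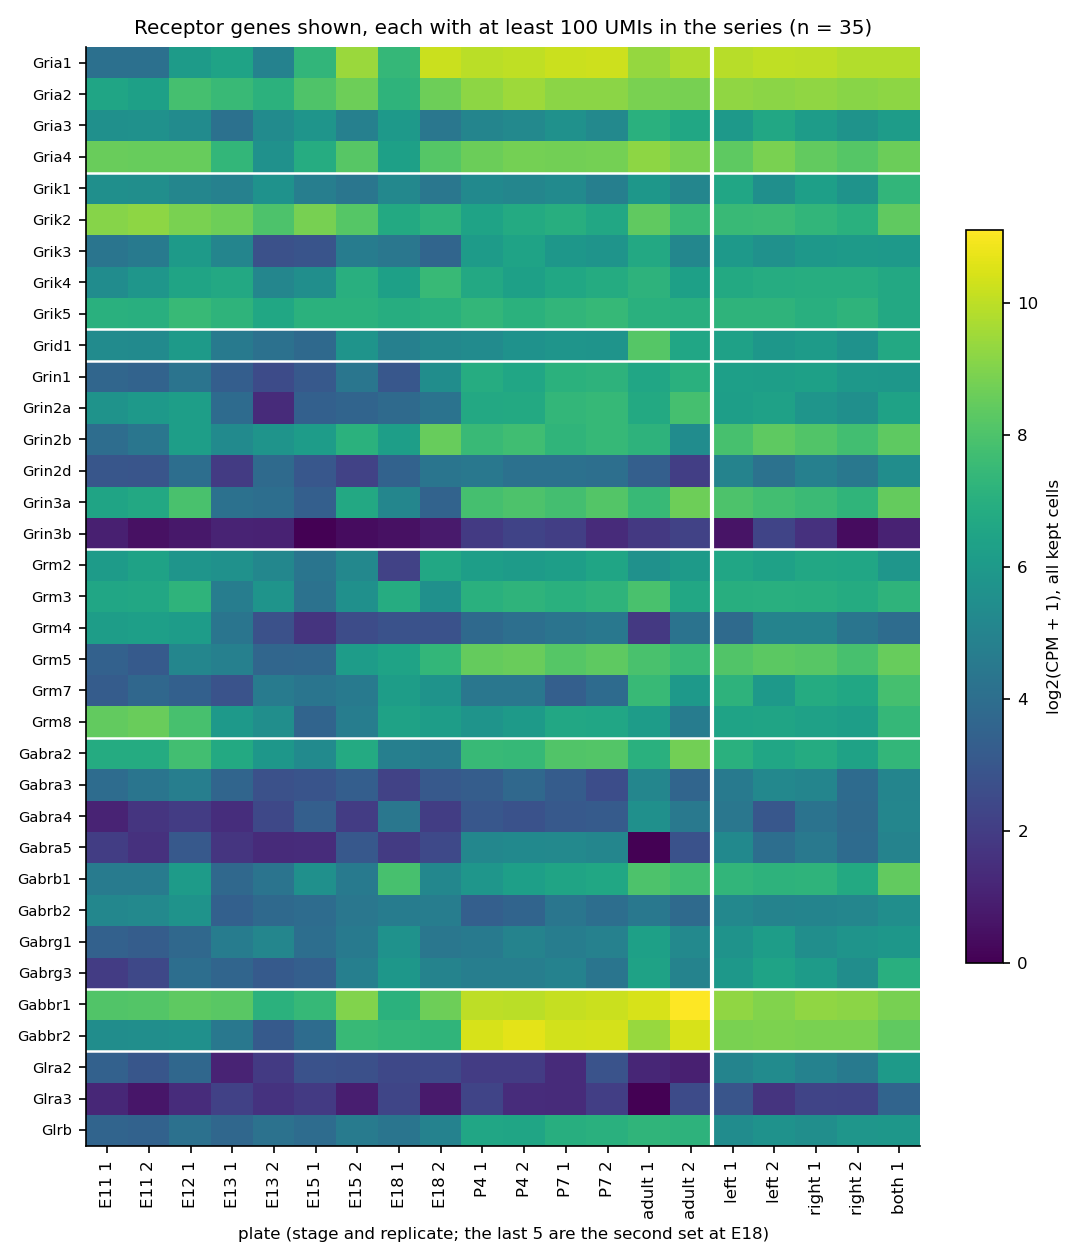
Level of 35 receptor genes with at least 100 UMIs in the series, as log2(CPM + 1) in colour, by plate (columns; the last 5 are the second set at E18) and gene (rows, by receptor class, white lines between classes). Gria1, Gabbr1 and Gabbr2 were the brightest rows from P4 onwards, while Grik2, Grm8 and Grm4 were brightest at E11 and E12.

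Between E11 and P7, the earliest stage and the oldest with mostly Pou4f1-positive cells, 14 of the 43 tested genes rose and 4 fell by edgeR's quasi-likelihood test with Benjamini-Hochberg adjustment over all genes. Over all 17453 genes, 28.6% were called, 15.4% higher and 13.2% lower. The change was positive for 33 of the 43 genes, with a median of 1.26 on the log2 scale against 0.03 over all genes. In Pou4f1-positive cells 17 rose and 3 fell (35% of all genes called), in spliced transcripts 18 rose and 2 fell (30.5%), and on the plates with at least 60% Pou4f1-positive cells 26 rose and 6 fell (46.9%). Without E11 plate 1 the calls were 9 (11.8% of all genes), and without P7 plate 2 they were 11 (12.6%). The rises of Gria1, Grm5, Gabbr2, Grin1, Glrb, Gabra5 and Gria2 and the fall of Grik2 passed in every alternative. Gabbr1, Gabrb1, Gabrb2, Gabrg1, Grin2a and Grm4 were not called when any 1 of the E11 or P7 plates was left out. A slope over the order of the 8 stages was called for 18 rising and 5 falling genes of 40 tested, beside 38.3% of all 15676 genes (20% rising, 18.2% falling). Without the adult plates the slope calls were 13 rising and 2 falling, beside 29.6% of all genes.

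**Figure D2:**
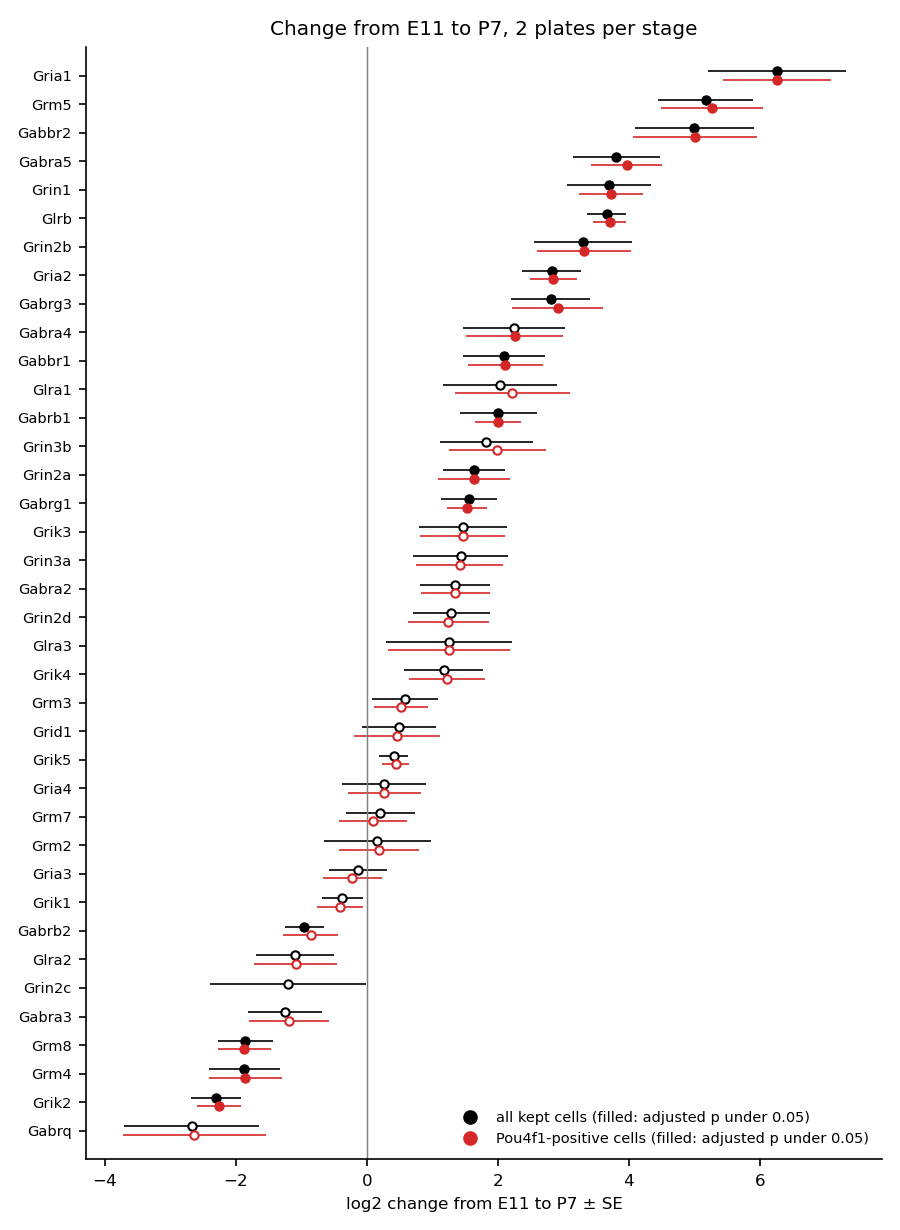
Log2 change from E11 to P7 with its standard error (horizontal axis) for 38 tested receptor genes (rows), in all kept cells (black) and in Pou4f1-positive cells (red), 2 plates per stage. Filled points passed an adjusted p of 0.05. Gria1 (6.26) is at the top and Grik2 (-2.30) near the bottom, and the black and red points of these genes lie close together.

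Among the AMPA receptor subunits, Gria1 and Gria2 rose and Gria3 and Gria4 did not pass the test. Gria1, the subunit that forms calcium-permeable channels when Gria2 is absent, was at 16.2 and 16.3 CPM at E11, 67.0 at E12, 85.2 and 29.2 at E13, 158 and 705 at E15 and 169 and 1201 CPM at E18. It was at 988 and 1049 CPM at P4, 1189 and 1236 CPM at P7 and 648 and 884 CPM in the adult. The plates of each stage from E13 to E18 differed widely, and those of P4 and P7 lay far above both E11 plates. From E11 to P7 its log2 change was 6.26 ± 1.05 (SE; adjusted p = 0.00148), a 76.9-fold rise and the largest among the receptor genes. Gria2, whose edited form keeps the channel closed to calcium, stood at 92.8 and 78.7 CPM at E11 and 579 and 589.9 CPM at P7, a log2 change of 2.82 ± 0.44 (SE; adjusted p = 0.00101). Gria4 was at 379.8 and 374 CPM at E11, at 161 and 48.3 at E13 and at 433 and 441 CPM at P7, so both E13 plates lay below those of E11 and P7. Gria3 stayed between 16.5 and 61.1 CPM on the series plates up to P7 and read 131 and 96.3 CPM in the adult, with 51.4 to 102 CPM in the second set at E18.

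The mix within the AMPA subunits moved with these changes. As shares of the spliced Gria counts of a plate, Gria1 made up 2.92 and 2.55% at E11 and 46.3 and 47.1% at P7. Gria2 made up 62.5 and 58.6% and 45.7 and 45.3%, and Gria4 25.4 and 24.5% and 6.34 and 5.97%. In spliced counts Gria1 and Gria2 were thus near equal at P7, while at E11 Gria2 led and Gria4 was second. Total counts gave another order. At E11 Gria4 (379.8 and 374 CPM) lay above Gria2 (92.8 and 78.7 CPM), and at P7 Gria1 (1189 and 1236 CPM) above Gria2 (579 and 589.9 CPM). The spliced shares were not tested, and each is set by all members of its class.

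NMDA receptor subunits had levels of differing shape in total counts. Grin1 was low at E11 and higher after birth. Grin2b was low at E11, and its highest stage mean in the series was at E18. Grin2a was higher at E11 than on the series plates from E13 to E18, but 80.7% of its E11 UMIs were unspliced. In spliced counts Grin2a was at 11.7 and 16.2 CPM at E11, beside 13.9 and 11.3 CPM for Grin1. At P7 Grin2a was at 69.5 and 77.3 CPM in spliced counts. Grin1, the subunit that every NMDA receptor holds, was at 11.6 and 10.6 CPM at E11, 9.09 and 4.78 at E13, 7.60 and 19.6 at E15, 7.18 and 42.2 CPM at E18, 119 and 93.9 CPM at P4 and 135 and 144 CPM at P7. Its log2 change from E11 to P7 was 3.70 ± 0.64 (SE; adjusted p = 0.00175). Grin2b, which dominates before birth in many brain regions, read 14.5 and 19.6 CPM at E11, 75.0 at E12, 74.6 and 374 CPM at E18, 152 and 174 CPM at P7 and 143 and 41.0 CPM in the adult. In the second set at E18 Grin2b read 235, 332, 270, 215 and 327 CPM, above all P4 and P7 plates (152 to 205 CPM). Its log2 change from E11 to P7 was 3.30 ± 0.75 (adjusted p = 0.00785), and the plates of E18 lay on either side of those of P4.

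Grin2a, the subunit linked to faster NMDA currents in mature circuits, was at 50.7 and 62.8 CPM at E11, 74.4 at E12, 13.6 and 1.59 at E13, 9.78 and 11.0 at E15 and 13.6 and 18.1 CPM at E18. It then read 105 and 108 CPM at P4, 166 and 175 CPM at P7 and 107 and 226 CPM in the adult. Both plates of E11 lay above all series plates from E13 to E18 and below those of P4, while the 5 plates of the second set at E18 read 74.0, 81.8, 54.7, 45.3 and 85.0 CPM. The change was -3.05 ± 0.59 (SE; adjusted p = 0.0321) from E11 to E13 and 2.999 ± 0.55 (SE; adjusted p = 0.00539) from E18 to P4. Grin3a, a subunit that lowers calcium entry through NMDA receptors, was at 88.0 and 102 CPM at E11, 241 at E12, 16.5 and 15.4 at E13, 9.23 and 103 at E15, 33.1 and 10.5 CPM at E18 and 229 and 261 CPM at P4. E15 plate 2 was as high as the E11 plates, and the other series plates from E13 to E18 lay below them, while the second set at E18 lay above them (154 CPM or more). Its change from E11 to E13 was not called (adjusted p = 0.126), while its rise from E18 to P4 was 3.68 ± 0.83 (SE; adjusted p = 0.0131). Grin3a holds the coding gene Ppp3r2 within its span, so its count is uncertain.

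In spliced counts of the Grin2 class, Grin2a held 44.3 and 47.4% at E11, 11.4 and 4.08% at E13, 3.48 and 2.52% at E18, 27.1 and 26.6% at P4 and 41.6 and 38.0% at P7. Grin2b held 26.4 and 26.3% at E11, 74.3 and 51.0% at E13, 75.7 and 88.7% at E18 and 45.9 and 53.2% at P7. Grin2d held 29.2 and 24.1% at E11 and 14.3 and 44.9% at E13. The lead thus passed from Grin2a to Grin2b by E13, and by P7 Grin2a and Grin2b were close. The shares at E13 and E18 rest on few molecules. Grin2a had 24 and 3 UMIs at E13 (77.8% unspliced) and 34 and 24 at E18 (82.8% unspliced). The adult plates differed, with Grin2a at 43.2 and 80.5% and Grin2b at 46.9 and 14.2%. Grin2d was at 2.84 to 21.2 CPM across the series, Grin2c at 0 on most plates up to P7 and at 6.59 and 4.18 CPM in the adult. Grin3b stayed below 3.68 CPM on every series plate except P4 plate 2, which had that level. Grin2d overlaps the coding gene Kdelr1 and Grin3b the coding gene Tmem259, so both counts are uncertain.

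Of the kainate receptor subunits, Grik2 fell. Grik2, a principal channel-forming subunit, was the most abundant receptor gene on both E11 plates, at 555 and 597 CPM. It read 474 CPM at E12, 402 and 257 at E13, 452 and 291 at E15, 108 and 146 CPM at E18, 85.9 and 109.9 CPM at P4, 125 and 100.5 CPM at P7 and 339 and 184 CPM in the adult. All series plates from E18 to P7 lay below all series plates from E11 to E15, while the plate of both sides in the second set, at 343 CPM, lay above 1 plate each of E13 and E15. The log2 change from E11 to P7 was -2.30 ± 0.38 (SE; adjusted p = 0.00127). Grik5, a subunit that needs Grik1 to Grik3 to form channels, lay between 96.7 and 179 CPM on all 15 plates and was not called between any stages. It gave 46.7% to 69.7% of spliced kainate counts. Grik3 was called from E18 to P4, at 20.0 and 11.3 and then 67.9 and 87.4 CPM (log2 change 2.51 ± 0.73). Grik1 and Grik4 passed no test between stages, with 39.2 and 27.1 and 98.8 and 114 CPM, respectively, on the plates of P7.

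Of the delta receptors, which bind synapse-organising cerebellins rather than glutamate, Grid1 was called in the slope over stages, which was 0.25 log2 units per stage. It lay between 13.0 and 66.6 CPM on the series plates up to P7 and at 294 and 93.3 CPM in the adult, with 49.9 to 104 CPM in the second set at E18. Without the adult plates the slope was 0.05 (adjusted p = 0.663), and it was also not called without either adult plate or E13 plate 1.

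Metabotropic glutamate receptors did not all move alike. The group I receptor Grm5, which couples to calcium release, rose, and the group III receptors Grm4 and Grm8, which lower transmitter release at terminals, fell. Grm5 was at 9.85 and 7.97 CPM at E11, 33.7 at E12, 27.9 and 11.7 at E13, 11.9 and 69.3 at E15, 86.3 and 165 CPM at E18, 358 and 376 CPM at P4 and 294 and 328 CPM at P7. From E11 to P7 its log2 change was 5.17 ± 0.73 (SE; adjusted p = 0.000534), a 36.0-fold rise.

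Grm8 was at 352 and 377 CPM at E11, 238 at E12, 62.0 and 44.1 at E13, 10.9 and 25.0 at E15, 83.0 and 72.4 CPM at E18, 53.4 and 64.9 CPM at P4, 99.6 and 95.05 CPM at P7 and 69.9 and 24.5 CPM in the adult. All series plates from E13 onwards lay below both E11 plates, and the lowest were those of E15 and adult plate 2. The log2 change was -2.93 ± 0.45 (SE; adjusted p = 0.0117) from E11 to E13 and -1.86 ± 0.42 (SE; adjusted p = 0.00786) from E11 to P7. Grm4 followed, with 71.5 and 76.8 CPM at E11, 70.6 at E12, 2.17 and 5.05 at E15 and 18.7 and 20.6 CPM at P7, and a log2 change from E11 to P7 of -1.87 ± 0.54 (SE; adjusted p = 0.0240). In spliced Grm counts, Grm4 gave 38.3 and 38.3% at E11 and 7.52 and 6.96% at P7, and Grm5 gave 1.11 and 1.36% and 49.8 and 50.5%. The group II receptors passed no test between stages: Grm2 was at 68.2 and 83.6 CPM at E11 and 73.6 and 90.8 CPM at P7, and Grm3 at 93.6 and 100.4 and 131 and 150.1. On E18 plate 1 Grm2 read 3.59 CPM, against 100.2 on plate 2. Grm7, also of group III, was at 8.31 and 12.3 CPM at E11 and 9.41 and 13.7 CPM at P7, and is described with the adult.

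**Figure D3:**
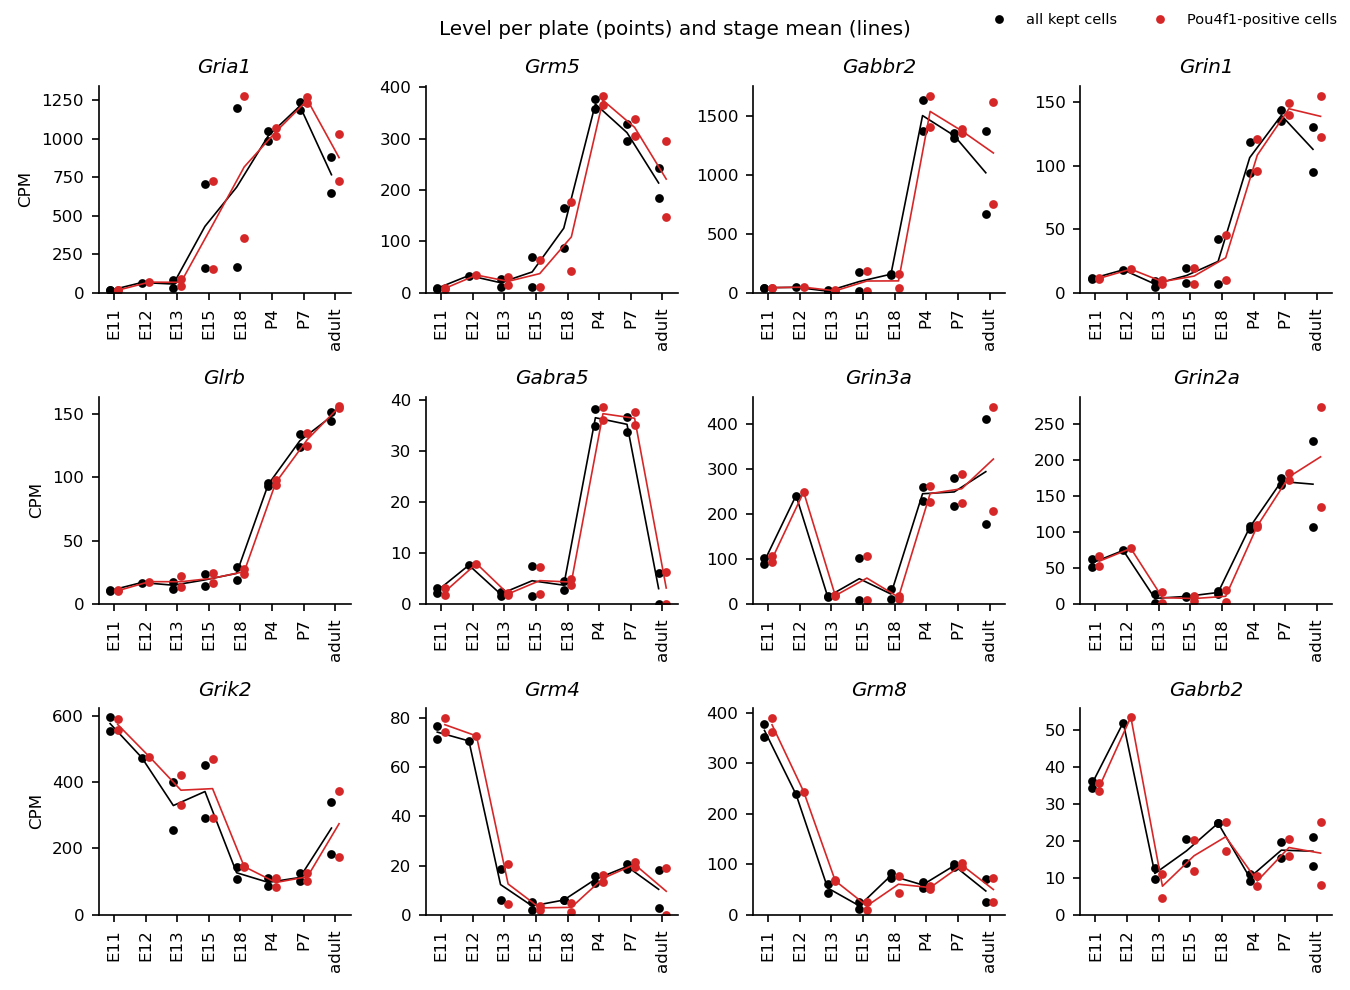
Level in CPM (vertical axis, separate scale per gene) of 12 receptor genes at each of 8 stages (horizontal axis), with a point for each plate and a line through the stage means, in all kept cells (black) and Pou4f1-positive cells (red). Gria1 reached 1189 and 1236 CPM at P7 from 16.2 and 16.3 at E11, Grin2a is low from E13 to E18, and Grik2, Grm4 and Grm8 start at their highest levels.

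Among GABA-A receptor subunits, Gabra5, Gabrg3, Gabrb1 and Gabrg1 rose from E11 to P7 and Gabrb2 fell, while 7 of the 12 tested did not pass. Gabra5, an alpha subunit known for receptors outside synapses, was at 3.09 and 2.04 CPM at E11, 1.63 and 7.43 at E15, 2.79 and 4.52 CPM at E18, 34.8 and 38.2 CPM at P4, 36.6 and 33.8 CPM at P7 and 0 and 5.97 CPM in the adult. It was high at P4 and P7 and low on every other series plate. The log2 change from E11 to P7 was 3.81 ± 0.67 (SE; adjusted p = 0.00195). Gabra5 overlaps another gene on the opposite strand, and no source used here says whether counting used strand, so its count is uncertain.

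Gabra2, the alpha subunit with the most transcripts at E11 and P7, did not pass the test between these stages. Gabra2 was at 112 and 113 CPM at E11, 26.7 and 23.4 CPM at E18, 180.1 and 173 CPM at P4 and 274 and 281 CPM at P7. Within the series it was thus lowest at E18, and its rise from E18 to P4 was 3.04 ± 0.59 (SE; adjusted p = 0.00717).

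In spliced counts, Gabra2 made up 80.8 and 70.9% of the alpha subunits at E11 and 71.1 and 73.8% at P7. Gabrb2 went from 34.4 and 36.2 CPM at E11 to 19.7 and 15.3 CPM at P7, and its log2 change was -0.96 ± 0.30 (SE; adjusted p = 0.0345).

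The smaller rises were of Gabrg3 (log2 change from E11 to P7 2.81 ± 0.60), Gabrb1 (2.01 ± 0.59) and Gabrg1 (1.56 ± 0.42). Gabrb1 was at 24.0 and 23.9 CPM at E11, 232 and 33.9 CPM at E18, 89.5 and 97.1 CPM at P7 and 253 and 209 CPM in the adult. It overlaps Gabra4, so both counts are uncertain. Its highest series plates were E18 plate 1 and both adult plates, 3 of the 4 with under 60% Pou4f1-positive cells. The plate of both sides in the second set, with 46.2% of such cells, read 351 CPM. The part of the cell mixture was not tested. Gabra4 was called in the slope (0.52 log2 units per stage) but not between E11 and P7. Gabra3 and Gabrq passed no test, with at most 33.0 and 5.11 CPM in the series.

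Both GABA-B subunits rose. Gabbr2, the subunit that couples to the G protein, was at 42.7 and 43.7 CPM at E11, 47.2 at E12, 21.0 and 7.97 at E13, 14.1 and 178 at E15, 164 and 154 CPM at E18, 1375 and 1639 CPM at P4, 1316 and 1358 CPM at P7 and 668 and 1373 CPM in the adult. All plates from P4 onwards lay above all earlier series plates. Its log2 change from E11 to P7 was 5.00 ± 0.91 (SE; adjusted p = 0.00235), a 32.0-fold rise. Gabbr1, which binds GABA, was already at 276 and 283 CPM at E11 and read 135 and 409 CPM at E18, 1036 and 994 CPM at P4, 1136 and 1182 CPM at P7 and 1406 and 2222 CPM in the adult. Its log2 change from E11 to P7 was 2.10 ± 0.63 (SE; adjusted p = 0.0281). At E11 Gabbr1 was thus several times above its partner, and at P4 and P7 the levels of the pair were of like size.

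Of the glycine receptor subunits, Glrb, the beta subunit that anchors the receptor at synapses, rose. It was at 10.8 and 10.2 CPM at E11, 11.9 and 17.5 at E13, 14.1 and 23.8 at E15, 18.8 and 29.4 CPM at E18, 95.7 and 93.0 CPM at P4, 124 and 134 CPM at P7 and 152 and 144 CPM in the adult. The plates of E11, P4, P7 and the adult lay close together, those of E13, E15 and E18 less so, and its log2 change from E11 to P7 had the smallest error among the rising genes, 3.66 ± 0.30 (SE; adjusted p = 2.99e-05). The alpha subunits, which are needed for glycine binding, were at or below 12.2 CPM on every series plate. Glra2, the alpha subunit of immature neurons, was called in the slope, which fell by 0.29 log2 units per stage. It was not called without the filter on low counts, without the adult plates (adjusted p = 0.119), without adult plate 2, E11 plate 1 or the E12 plate, in spliced transcripts (all cells or Pou4f1-positive ones) or on the plates with at least 60% Pou4f1-positive cells. At E18 the plates of the second set read 31.8, 40.1, 29.1, 22.8 and 65.0 CPM, above every series plate.

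In the genome, Gria1 (ENSMUSG00000020524, chr11:57011387-57330244), Gria2 (ENSMUSG00000033981, chr3:80681450-80802835), Grin1 (ENSMUSG00000026959, chr2:25291181-25319187), Grm5 (ENSMUSG00000049583, chr7:87584168-88134907), Gabbr2 (ENSMUSG00000039809, chr4:46662305-46991873), Gabra5 (ENSMUSG00000055078, chr7:57407672-57510059), Glrb (ENSMUSG00000028020, chr3:80843599-80913660) and Grik2 (ENSMUSG00000056073, chr10:49094833-49788766) are given by their gene spans in GENCODE M21 (GRCm38), where all 51 identifiers were found. Of the 51 spans, 33 overlap another gene and 7 overlap a coding gene.

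Between neighbouring stages, calls fell mainly in the interval around birth. From E18 to P4, 12 of 43 genes rose and 4 fell by edgeR's quasi-likelihood test, beside 19.6% of all genes (9.2% higher, 10.4% lower). The median log2 change was 0.73 against -0.07 over all genes. The 5 largest rises were those of Grin3a, Gabra5 (3.60 ± 0.72; adjusted p = 0.00776), Gabbr2 (3.47 ± 0.84 (SE; adjusted p = 0.0179)), Gabra2 and Grin2a. The calls included those of 4 of 7 NMDA genes, Grin3b among them, and of both GABA-B genes. The falls included those of Gabrb2 (-1.07) and of Glra1, which had 17 and 1 UMIs at E18 and 1 and 0 UMIs at P4, too few for a fold. In spliced transcripts 14 rose and 0 fell, beside 20.9% of all genes, where Gabrb2 and Glra1 did not pass the filter on low counts and the other falls were tested and not called (edgeR; 20 genes had an unadjusted p under 0.05 in either direction).

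These calls rest on few plates. Without E18 plate 1, which had the lowest share of Pou4f1-positive cells, the calls were 5 (8.51% of all genes), without P4 plate 1 they were 5 (4.73%) and without P4 plate 2 they were 3 (3.08%), all of them rises. The calls of Gabra2 and Grin2a passed in every alternative, and that of Grin3b (adjusted p = 0.0497) passed in 1 of 25. In Pou4f1-positive cells 12 rose and Glra1 fell, beside 20.4% of all genes. The one-sided plates of the second set at E18 give a further view of that age, in another mouse line. Grin3a was at 257, 213, 189 and 154 CPM there (left, left, right, right), against 33.1 and 10.5 on the series plates. Gabra2 was at 132, 96.0, 113 and 84.6 CPM, against 26.7 and 23.4. Gabbr2 was at 473, 491, 468 and 471 CPM, against 164 and 154. Gabra5 was at 38.0, 15.1, 21.5 and 13.8 CPM, against 2.79 and 4.52, and Grin2a at 74.0, 81.8, 54.7 and 45.3 CPM, against 13.6 and 18.1. The levels of Gabra2, Gabbr2 and Grin2a in the second set thus lay between those of E18 and P4 of the series, while those of Grin3a and Gabra5 lay above E18 and, on 1 left plate each, within the range of P4. The sets differ in line and in their tables, and no test was made between them.

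From E11 to E13, 0 of 43 genes rose and 4 fell, beside 1.45% of all genes called (0.854% higher, 0.596% lower). The fallers were Grin2a, Grm8, Grm4 (-2.73 ± 0.59; adjusted p = 0.0492) and Gabrb2 (34.4 and 36.2 to 9.66 and 12.7 CPM; -1.80 ± 0.33 (SE; adjusted p = 0.0254)). The calls were 0 without E11 plate 1, E11 plate 2 or E13 plate 2 (0.167%, 0.151%, 0.216% of all genes), 1 without P7 plate 1 or 2 (0.607%, 0.618%) and 2 without P4 plate 1 or 2 (0.731%, 0.725%). In Pou4f1-positive cells Grm8 alone was called, beside 1.78% of all genes. From E13 to E15 edgeR called 0 genes (9 with an unadjusted p under 0.05, 2 called by DESeq2 beside 2.58%), beside 0.0917% of all genes. From E15 to E18 it called 0 (8 unadjusted, 3 by DESeq2 beside 3.83%), beside 0.195% of all genes, and without E18 plate 2 it called 8, beside 10.5%. From P4 to P7 it called 0 (3 unadjusted, 0 by DESeq2), beside 0.00573% of all genes. The shares of all genes are at the adjusted threshold, and none is given for the unadjusted counts.

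From P7 to the adult, 2 of 43 genes rose, Grm7 among them, and Gabra5 fell, beside 3.58% of all genes called (1.76% higher, 1.82% lower). Grm7, a group III receptor of release sites, was at 9.41 and 13.7 CPM at P7 and 177 and 64.3 CPM in the adult, a log2 change of 3.23 ± 0.54 (SE; adjusted p = 0.0148). Gabra5 went from 36.6 and 33.8 to 0 and 5.97 CPM (-3.12 ± 0.68 (SE; adjusted p = 0.0336)), the lower adult plate having a count of 0 among 758697, which allows up to 3.95 CPM. Adult plates lay above both P7 plates for Grm7 and below both for Gabra5. Grm7 was also higher at E18 than at P7, with 71.45 and 51.3 CPM on the series plates. The second set at E18 read 146, 64.5, 114, 96.6 and 226 CPM for it, and the P4 plates 20.0 and 20.2 CPM.

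Other cell types moved with these changes. The 11 markers of the oligodendrocyte lineage summed to 230.3 and 183 CPM at P7 and to 11111 and 3235 CPM in the adult, with all 11 detected there, and astrocyte markers to 139 and 109 and then 1268 and 730.4 CPM. In Pou4f1-positive cells Grm7 was at 8.36 and 13.4 CPM at P7 and 104 and 25.7 CPM in the adult (log2 change 2.26 ± 0.54 (SE; adjusted p = 0.0401)), while the adult cells without Pou4f1 held 376 and 218 CPM. The oligodendrocyte markers summed to 5065 and 526 CPM in the adult Pou4f1-positive cells, so these hold such RNA too. In the oligodendrocyte lineage-like cluster found on both adult plates, which passed 9 markers of that lineage and 3 of astrocytes, Grm7 was at 666 and 458 CPM, and in the adult cluster that passed 6 medial habenula markers, but also 4 of the oligodendrocyte lineage and 2 of astrocytes, at 37.4 and 6.56. The part of the cell mixture in the rise of Grm7 was not tested. In Pou4f1-positive cells the change of Gabra5 was -2.97 ± 0.56 (SE; adjusted p = 0.0140), with 2 members and 3.68% of all genes called. In spliced transcripts edgeR called 0 members (10 with an unadjusted p under 0.05), beside 3.31% of all genes. Without P7 plate 1, P7 plate 2 or adult plate 1 the calls from P7 to the adult were 0 (0.145%, 0.15%, 0.302% of all genes). They were 1 without E11 plate 1 or 2 (1.34%, 1.32%) or P4 plate 1 or 2 (1.32%, 1.29%), 5 without adult plate 2 (5.81%) and 8 without E18 plate 1 or 2 (8%, 7.87%).

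Left and right habenula at E18 did not differ in any receptor gene by the test. Of 41 tested, 0 were called by edgeR's quasi-likelihood test and 0 by DESeq2, beside 0 of all 15489 genes (0%), and 2 had an unadjusted p under 0.05. Those were Grin2a, at 74.0 and 81.8 CPM on the left plates and 54.7 and 45.3 on the right, and Grin3a, at 257 and 213 and 189 and 154, both with an adjusted p of 1.000. The left plates lay above the right plates for both genes. The share of all genes at that unadjusted threshold is not given here, so the 2 are not read as differences. Erythroid markers also differed, with 19048 and 17220 CPM on the left plates and 3410 and 266 on the right, and their part was not tested. The median log2 change from left to right was -0.16 against 0.01 over all genes. With 2 plates a side, no gene was called despite the difference in erythroid markers, so even large differences between the sides could go uncalled.

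Receptor genes were rich in unspliced transcripts. Of the 40 members with at least 100 UMIs in the series, the median had 55.4% of its UMIs unspliced, against 10.6% over 15502 genes, and 21 of the 40 were over 50%. Members are also long, with a median span of 224 kb against 23.5 kb. The shares ran from 3.15% in Grm2 (13.0 kb) and 3.88% in Gabbr1 (29.1 kb) to 95.7% in Gabrb2 (209 kb). Unspliced counts in poly-T primed libraries can come from nascent RNA or from priming within introns, and which was not tested. The levels of Gabrb2, Grm8 (94.7%), Grm7 (94.1%), Grik2 (87.6%) and Gria4 (87.2%) therefore rest mostly on unspliced transcripts.

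**Figure D4:**
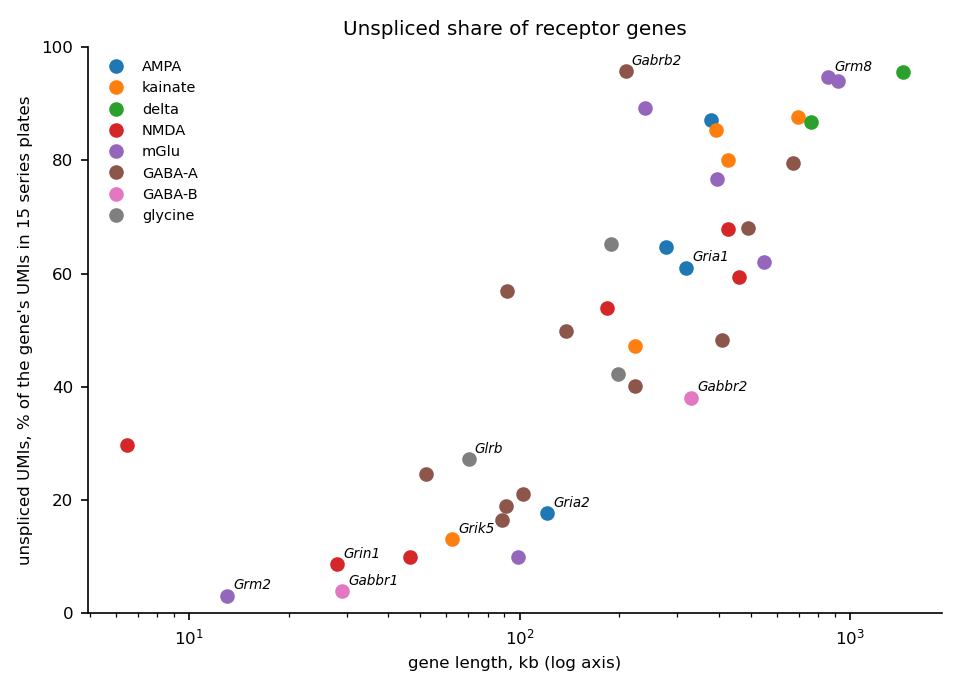
Share of a gene's UMIs that were unspliced in the 15 series plates (vertical axis, %) against the length of the gene (horizontal log axis, kb) for the 40 receptor genes with at least 100 UMIs, coloured by class. Grm2 and Gabbr1 lie at the lower left (3.15% and 3.88%) and Gabrb2 near the top (95.7%).

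For several rising genes the unspliced share was lower at P7 than at E11. It went from 81.7% to 59.2% in Gria1, from 61.8% to 34.9% in Gabbr2, from 56.6% to 20.5% in Glrb and from 89.5% to 49.9% in Gabrg1. The rises in spliced transcripts were correspondingly larger, with a log2 change of 7.42 ± 1.17 (SE; adjusted p = 0.000997) for Gria1, 5.77 ± 0.86 (SE; adjusted p = 0.000733) for Gabbr2 and 4.53 ± 0.45 (SE; adjusted p = 6.58e-05) for Glrb. The falls of Grm8 and Grik2 from E11 to P7 were also called in spliced transcripts (-1.76 and -1.68), that of Grm4 was not (adjusted p = 0.0659), and Gabrb2 did not pass the filter on low counts there.

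All series cells were clustered together without the receptor genes, and the levels of members in the P4 and P7 cells of the clusters are given as a description. Of the 5 clusters with at least 10 cells on at least 2 plates, clusters 1, 6 and 11 (365, 197 and 156 cells) were medial habenula-like. Cluster 4 (245 cells, led by Col25a1 and Gpr151) was left unnamed, with 2 medial and 1 lateral habenula markers. Cluster 10 (146 cells, led by Gad1, Pde11a and Cck) was left unnamed because it passed 3 markers of the medial and 3 of the lateral habenula. Of 29 members at or over 50 CPM in a cluster, 19 differed over 2-fold between the highest and lowest cluster, beside 18.1% of all 5285 genes at that level. Gria2, Gria4, Grin1, Grik5 and Glrb differed by 1.34-fold or less. At a coarser clustering (Leiden resolution 0.5, where these cells form 2 clusters beside an astrocyte-like one), 5 of 23 members at that level differed over 2-fold between the 2, beside 6.72% of all genes, and 21 of 24 with the astrocyte-like cluster included, beside 51.3%.

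Cluster 10 held the highest level of 13 of these genes. Grm8 had a median over plates of 220.0 CPM (147 to 275) there and 23.1 CPM (19.9 to 30.7) in cluster 6, and Grm3 of 249 CPM (248 to 281) and 79.1 CPM (56.1 to 109.9). Gabbr2 was the opposite, with 387 CPM (319 to 415) in cluster 10 and 1964 CPM (1844 to 2069) in cluster 11. The plate ranges of these pairs did not overlap.

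Cluster 4 led for Gabra2 at 482 CPM (426 to 548), against 90.1 CPM (83.8 to 103) in cluster 1, and for Grin2a at 319.9 CPM (262 to 352), against 79.9 CPM (65.2 to 87.4). It was the lowest in Grm5, with 111 CPM (93.9 to 156) against 536 CPM (523 to 577) in cluster 10. Cluster 11, with Cartpt and Ntng1 among its leading genes, was the highest in Gabrg3 at 75.4 CPM (56.3 to 132), against 4.84 CPM (2.36 to 7.66) in cluster 4. It also led in Grik3 at 130.3 CPM (112 to 140.3), against 10.2 CPM (8.50 to 12.8) in cluster 10. Cluster 6 led in Gria3 at 61.1 CPM (36.3 to 64.6), against 2.57 CPM (2.19 to 10.6) in cluster 10. The top cluster lay above every other cluster on every plate for 12 of the 29 genes, beside 9.33% of all genes at that level.

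**Figure D5:**
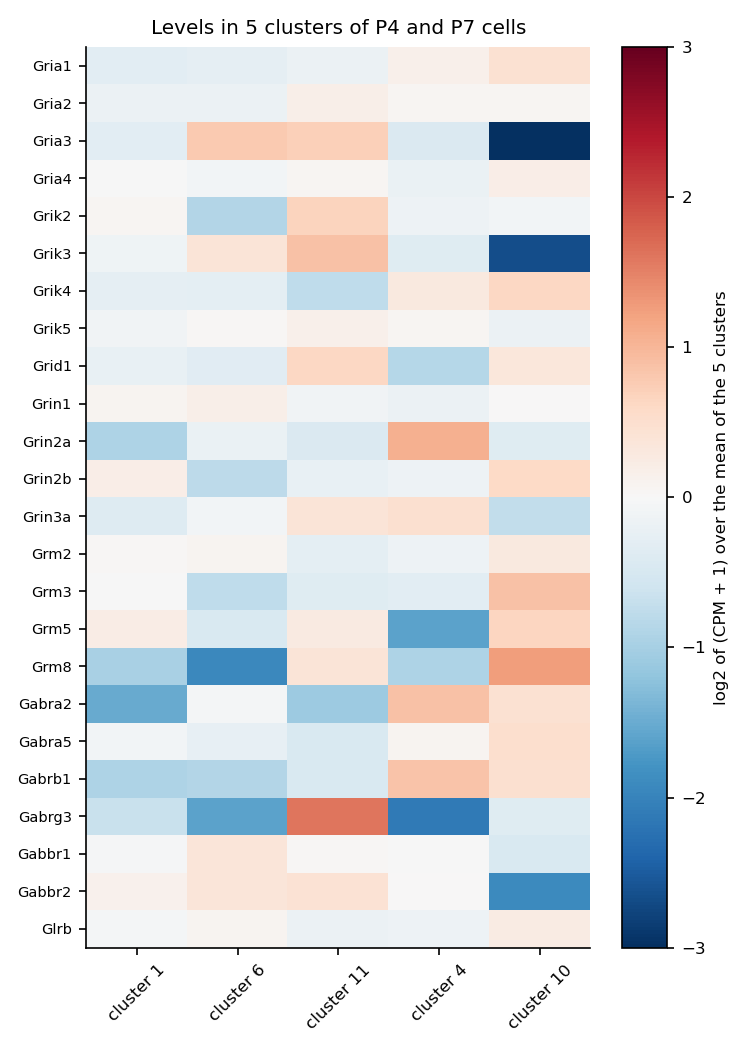
Levels of 24 receptor genes (rows) in 5 clusters of P4 and P7 cells (columns), as the log2 of median CPM + 1 over the mean of the 5 clusters; colours end at 3 in either direction. Grm8 is highest in cluster 10 and Gabrg3 in cluster 11, while Gria2, Grin1 and Glrb are pale across the row.

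Genes that act with the receptors were taken from 4 lists. From E11 to P7, 8 of 31 auxiliary and scaffold genes of glutamate receptors rose and 5 fell (median 0.48), beside 15.4% higher and 13.2% lower over all genes. Cnih3, an AMPA receptor cornichon, went from 0.579 and 0.204 CPM, at most 3 UMIs a plate and too few for a fold, to 43.6 and 51.5 CPM (adjusted p = 0.000211), and Grip2 (4.32) and Dlg2 (2.23) also rose. Cacng2, the AMPA receptor partner stargazin, went the other way, from 47.1 and 50.9 to 1.93 and 2.64 CPM (log2 change -4.37 ± 0.58 (SE; adjusted p = 0.000360)), with Homer3 (-2.79) and Dlgap2 (-1.24).

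Of 11 genes that act with GABA and glycine receptors, 5 rose and 1 fell (median 0.73), beside the same 15.4% and 13.2% of all genes. The largest rises were of 3 auxiliary subunits of the GABA-B receptor: Kctd12b (from 0.773 and 0.204 to 24.2 and 25.9 CPM), Kctd12 (2.60) and Kctd8 (2.47); Gabarap fell (-0.73). Of the 2 chloride cotransporters, Slc12a5, which exports chloride and makes GABA-A currents inhibitory, was at 7.73 and 6.33 CPM at E11, 3.99 and 18.8 CPM at E18, 116 and 93.0 CPM at P4 and 97.0 and 120.3 CPM at P7 (log2 change from E18 to P4 3.54 ± 0.64 (SE; adjusted p = 0.00522)). The plates of the second set at E18 read 70.8, 23.8, 76.6, 41.8 and 76.0 CPM, between the series plates of E18 and those of P4. The importer Slc12a2 was at 27.6 and 30.8 CPM at E11 and 54.3 and 49.6 CPM at P7 and was not called.

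Of 12 tested genes of transmitter supply and uptake, 7 rose and 1 fell from E11 to P7 (median 2.83), again beside 15.4% and 13.2%. The vesicular glutamate transporter Slc17a7 (5.35) and the GABA-synthesising enzyme Gad1 (4.81) led the rises, with Gad2, which had too few UMIs at E11 for a fold (0.386 and 0.204 CPM, then 6.06 and 5.98 CPM), and the glutamate transporter Slc1a2 fell (-2.45). At E11 Slc1a2 (154 and 171 CPM) made up most of the astrocyte marker sums (186 and 182 CPM), so the other astrocyte markers were low there. Gad1 was uneven between plates, with 39.9 and 111 CPM at E18, 29.1 and 1.53 CPM at P4 and 75.7 and 91.4 CPM at P7. Slc32a1, the vesicular GABA transporter of the same list, read 0 CPM on every plate of P4, P7 and the adult. From E18 to P4 the counts were 7 rising and 3 falling of 31, 3 and 1 of 11, 1 and 0 of 2, and 3 and 2 of 12, in the order of the lists, beside 9.2% higher and 10.4% lower over all genes. Cnih3 (4.18), Grip2 (3.66), Cacng5 (3.60), and Iqsec3 (2.61) led the rises, with Slc17a7, which went from 0.798 and 0.753 CPM, under 3 UMIs a plate and too few for a fold, to 182 and 177 CPM. The second set at E18 read 11.8 to 31.9 CPM for Cnih3, 27.0 to 47.1 for Grip2 and 7.57 to 21.5 for Cacng5. It read 11.4 to 38.9 CPM for Iqsec3 and 9.87 to 17.8 for Slc17a7. These levels lay below the P4 plates and, for all but Iqsec3, above both E18 plates of the series. Cacng2 (-2.52), Kctd16 (-3.30), Slc1a2 (-3.42) and Slc1a3 (-3.20) led the falls. Kctd16 was at 45.1 and 2.26 CPM at E18 and 1.53 and 2.45 CPM at P4, so within the series its fall rests on E18 plate 1. The second set at E18 read 10.8 to 47.6 CPM for it. The astrocyte markers, of which Slc1a2 and Slc1a3 are members, summed to 1446 and 284 CPM at E18 and 119.9 and 89.9 CPM at P4. Slc1a2 (334 and 142 CPM) and Slc1a3 (484 and 96.7 CPM) made up most of the E18 sums, which are thus not independent of their falls. The part of the cell mixture in these falls was not tested. From P7 to the adult 2 of 31, 1 of 11, 0 of 2 and 3 of 12 rose, beside 1.76% of all genes, among them Cacng2 (2.57), Cacng7 (1.35), Slc1a2 (2.57) and Slc6a9 (2.25). The astrocyte markers, Slc1a2 among them, also differed between these plates, with 139 and 109 CPM at P7 and 1268 and 730.4 CPM in the adult, and their part was not tested.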

How the data were processed

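Per the labels' protocols, Cel-seq2 libraries with a 6-base UMI were sequenced from 20 plates. The submitters' processing notes name STAR 2.5.3a, Trim Galore and mm10; the sources used here give no counting program, annotation or use of strand. For each gene and well the authors deposited total, spliced and unspliced expected counts, that is UMI counts corrected for collisions among 4096 possible UMIs, found from the values. Wells with at least 1000 UMIs, at least 500 genes and at most 20% mitochondrial counts were kept, without spike-ins. A test on whole counts was planned; the expected counts were summed per plate and rounded. Plates numbered alike did not pair (correlations between stages -0.36 to 0.25).

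Sums were tested with edgeR 4.0.16 (filterByExpr, TMM, glmQLFit, glmQLFTest; R 4.3.3, limma 3.58.1), adjusted by Benjamini-Hochberg over all genes at 0.05, in 1 fit of the 14 plates of the stages with 2 plates; the slope used all 15 series plates and the sides 4. DESeq2 1.42.0 and other filters, scalings, cells and plates served as alternatives. Counts of members with an unadjusted p under 0.05 have no share of all genes at that threshold beside them, so no result is read from them. A cell was Pou4f1-positive with a count above 0. Clusters came from scanpy 1.11.5 and leidenalg 0.10.2 (Python 3.11.15; 2000 variable genes, 30 components, 15 neighbours, resolution 1), and took an X-like name from at least 3 markers of a list; no doublet caller was run. The scripts were tested on simulated data. Wells are numbered in the tables, so shared cell barcodes were not counted. Limits of a count of 0 use 3 counts and cover counting error only.

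The members, lists and tests were chosen with earlier results of these data known. Members were to be named in full, and some are not reported here; full statistics went to up to 5 called rises and 5 falls per contrast, and up to 3 called genes per direction of each accompanying list were named. Coordinates are from GENCODE M21 (GRCm38) and promoters from RefSeq.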

Additional observations from a re-analysis of the deposited data

Results flagged for a closer look

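The plate of both sides at E18 enters no comparison, since it is a single plate of its kind, and it carried signal in 44 receptor genes with more than 3 UMIs. On it, 22 members of 49 lay above all 4 one-sided plates and 11 below all 4, beside 25.3% and 25.5% of all 24311 genes with more than 3 UMIs on a plate. Grik2 was at 343 CPM there, against 185, 189, 159 and 130.4 on the one-sided plates, Grm7 at 226 against 146, 64.5, 114 and 96.6, Gabrb1 at 351 against 157, 145, 150.4 and 108 and Glra2 at 65.0 against 31.8, 40.1, 29.1 and 22.8. Gabbr2 was lower, at 337 against 473, 491, 468 and 471 CPM. These genes were chosen after their values were seen. On this plate 46.2% of cells were Pou4f1-positive, and progenitor markers summed to 1811 CPM, against 682, 704, 603 and 1008 on the one-sided plates; their part was not tested.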

How the results depend on the processing

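The 64 calls of single receptor genes gave 1662 values under alternatives: 1388 kept their side of the threshold, 274 lost it, and 0 changed direction. Counts of calls moved more, each given beside the share of all genes called by the same fit. Without a filter on low counts the calls were 15 beside 4.56% (E11 to E13), 10 beside 3.32% (E13 to E15), 10 beside 3.89% (E15 to E18), 2 beside 0.362% (P4 to P7) and 15 beside 4.7% (P7 to adult), against 4, 0, 0, 0 and 3. Fitting the 4 plates of a comparison alone gave 7 beside 3.58% (E18 to P4, against 16), 5 beside 3.64% (P4 to P7), 6 beside 4.79% (P7 to adult) and 36 beside 63.2% (E11 to P7, against 18). Plates with at least 60% Pou4f1-positive cells gave 3 beside 1.13% (E15 to E18) and 32 beside 46.9% (E11 to P7). DESeq2 gave 2 beside 2.58% (E13 to E15), 3 beside 3.83% (E15 to E18) and 6 beside 7.59% (P7 to adult). From E11 to E13, Pou4f1-positive cells gave 1 beside 1.78% and their spliced transcripts 2 beside 1.77%. Spliced transcripts gave 0 beside 3.31% from P7 to the adult (edgeR; 10 with an unadjusted p under 0.05), leaving out cells above 3 times the plate median gave 1 beside 0.341% from E15 to E18, and the slope without the adult plates 15 beside 29.6% against 23. The cause of these shifts was not tested. Leaving out each plate in turn gave 0 to 6 beside 0.151% to 5.5% (E11 to E13), 0 to 2 beside 0.00496% to 1.78% (E13 to E15), 0 to 8 beside 0.0199% to 10.5% (E15 to E18), 3 to 19 beside 3.08% to 28.5% (E18 to P4), 0 to 0 beside 0% to 0.00541% (P4 to P7), 0 to 8 beside 0.145% to 8% (P7 to adult), 9 to 23 beside 11.3% to 33.5% (E11 to P7), 17 to 24 beside 32.3% to 43.4% (slope) and 0 to 0 beside 0.105% to 0.226% (sides); a lone plate was assumed to vary like the other groups. From E13 to E15 the calls were 2 without E18 plate 1 or 2 (1.78%, 1.75%) and 1 without E15 plate 1 (0.129%), and from E18 to P4 they were 9 without E11 plate 1 or 2 (13.2%, 13.2%) or P7 plate 1 or 2 (13%, 13%). The replicate block, with plates numbered alike as a block, gave 3 beside 1.12%, 0 beside 0.0229%, 0 beside 0.0917%, 12 beside 16.7%, 0 beside 0.00573%, 2 beside 2.82%, 18 beside 26.9%, 23 beside 34.3% in the order of the stages, then E11 to P7 and the slope, and 0 beside 0.0387% between the sides; the numbers do not pair the plates (median correlation 0.0214). At Leiden resolution 0.5, 21 of 24 members differed over 2-fold between clusters, beside 51.3% of all genes, against 19 of 29 beside 18.1%; of the 3 clusters compared there, 1 carried 8 of 9 astrocyte markers, and between the other 2 clusters 5 of 23 members did, beside 6.72%. Against that cluster Gria2 differed 11.7-fold and Glrb 10.1-fold. The spliced, Pou4f1-positive combination, the 60% limit and the comparison without the astrocyte-like cluster were chosen after seeing the data. Depth limits members under about 100 UMIs in the series, and the 56 cells of adult plate 1.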

Other observations

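Levels of 5 receptor genes in 2 clusters of young neurons at E11 are given as a description. Of the neuron-like clusters of that stage, one was led by Crabp1 and Onecut3 (cluster 0) and the other by Tfap2b and Shox2 (cluster 12). Grin2a was at 74.9 and 95.6 CPM on the 2 plates in cluster 0 and 9.18 and 9.65 in cluster 12, Grin3a at 131 and 158 against 17.3 and 11.6, and Grm3 at 133 and 153 against 20.4 and 18.3. Grm8 went the other way, at 328 and 332 against 686 and 672, as did Grik2, at 475 and 471 against 707 and 717. For these 5 genes, chosen after their values were seen, the plates agreed and the clusters did not overlap. No test was made, since the clusters come from the same cells.

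Adult cells outside the neuron-like clusters also carried receptor transcripts. In the astrocyte-like cluster of adult plate 2 (8 astrocyte markers, with 6 of the oligodendrocyte lineage), Gabrb1 was at 2134 CPM and Gria1 at 1700.3 CPM. In the oligodendrocyte lineage-like cluster led by Gpr17 and Pdgfra on the same plate (9 markers of that lineage, 4 of astrocytes), Grm7 was at 313 CPM. These are single plates with no replicate check.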
